A study of Drosophila melanogaster with 3 samples.

Results

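The Cpr genes of the fruit fly Drosophila melanogaster encode structural proteins of the cuticle, and they were described here by how Deadpan (Dpn), a transcriptional repressor, was found at their start sites in the embryo. Members were the protein-coding genes whose symbol begins with Cpr and a digit in the gene models of Ensembl release 115 on the dm6 build of the genome. The rule found 70 genes among 13945, of which 35 lay on arm 3L, 21 on 2R, 5 on 2L, 5 on 3R, 4 on X and 0 on chromosome 4. The rule used symbols and no measured value.

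Binding was measured by chromatin immunoprecipitation sequencing in the strain dpn-GFP, a transgenic line with green fluorescent protein (GFP) fused stably to the C-terminus of Dpn, and anti-GFP antibody was used for precipitation. Chromatin came from pooled whole embryos of both sexes, aged 0 to 16 h, and was sheared by sonication to 200 to 800 bp. The 3 biological replicates formed 1 group, and with nothing to compare it with, conditions were not tested. Pooled whole embryos mix all tissues and ages, so that a site bound in few cells and a site bound weakly in many cannot be told apart, and peak lists hold no expression values with which the label could be checked.

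The insect cuticle is a layered coat of chitin fibres and proteins that epidermal cells secrete at the end of embryogenesis and again at each moult. Most Cpr proteins carry the Rebers and Riddiford consensus, a stretch that binds chitin, and different members are used at different stages and in soft or stiff cuticle. The genes lie in tandem runs, are expressed in brief pulses that follow the moulting hormone ecdysone, and are known for TATA boxes close to their start sites. Dpn is a basic helix-loop-helix protein of the Hairy class, best known from neural stem cells (neuroblasts) rather than from the epidermis.

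The authors' thresholded list held 6253 peaks, each with a summit, the position of highest enrichment, and a signal, the peak caller's own value on a scale that the sources used here do not give. These were also ranks 1 to 6253 by signal in a relaxed list of 30000 peaks called on the pooled replicates, in which lower ranks include background. The relaxed lists of replicates 1, 2 and 3 held 30000, 22475 and 30000 peaks. Signals are compared only within a list, rank 1 is the strongest peak, and the number of sequencing reads behind the lists is unknown.

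Few Cpr genes had Dpn close by. A thresholded summit lay within 1 kb of a start site for 3 of the 70 members, Cpr67Fb, Cpr73D and Cpr65Ay, which is 4.29% (exact 95% interval 0.893 to 12.0%), whereas it was 31.3% of all protein-coding genes. Intervals cover counting error only, and members in one run share their surroundings.

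The strongest of these sites belonged to Cpr73D, a long Cpr gene (FBgn0036680, chr3L:16939100-16957689, minus strand). Its summit at position 16956882 had a pooled signal of 240, rank 2618, and lay 807 bp downstream of the start in an intron. At this start the best peak of replicate 1 had a signal of 38.2 and rank 4868, that of replicate 2 a signal of 69.7 and rank 2622, and that of replicate 3 a signal of 137 and rank 2165. All 3 replicates thus placed the site in the upper part of their lists, replicate 1 lowest by rank. The same position is an intron of Ogdh, a gene on the opposite strand named for the oxoglutarate dehydrogenase enzyme, whose start was nearer, at 557 bp. Cpr73D was the only member with thresholded summits inside its body (1 of 70, 1.43%, against 14.1% of all genes). These shares were not adjusted for gene length, whose median was 1093 bp in Cpr genes and 2166 bp in all genes. Cpr73D held 3 such summits. The other two were at 16955387, in an untranslated region 113 bp from the Ogdh start (signal 233, rank 2735), and at 16941368 in an intron, 1581 bp from the nearest protein-coding start, another start of Cpr73D itself (signal 135, rank 5589).

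The site of Cpr67Fb (FBgn0036110, chr3L:10894173-10894693, plus strand) was intergenic, at position 10893523, 650 bp upstream of the start, and no other protein-coding start was nearer. Its pooled signal was 185, rank 3745. The best peak of replicate 1 had a signal of 40.4 and rank 4485, that of replicate 2 a signal of 42.0 and rank 4931, and that of replicate 3 a signal of 98.3 and rank 3475. These 3 ranks lay closer together than those of Cpr73D. Cpr67Fb was the only member within 1 kb of a thresholded summit that was also the nearest protein-coding gene to that summit.

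The weakest of the 3 sites was next to Cpr65Ay (FBgn0085300, chr3L:6158075-6158630, minus strand). The summit at position 6157723 had a pooled signal of 133, rank 5658, and lay 907 bp downstream of the start, beyond the end of the gene. The start of CG13297, a gene known only by its number, was nearer, at 346 bp. Replicate 1 gave a signal of 32.2 and rank 6310, replicate 2 a signal of 26.6 and rank 8365, and replicate 3 a signal of 67.9 and rank 5606. Only replicate 3 had it among its first 6253 peaks, so this site was close to the limit of the thresholded list, whose lowest signal was 122.

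The 101 bases around each of these summits are shown because they are the thresholded Dpn-GFP summits nearest to Cpr start sites. They were read from the plus strand of Release 6, which is dm6, at chr3L:10893473-10893573 for Cpr67Fb, chr3L:16956832-16956932 for Cpr73D and chr3L:6157673-6157773 for Cpr65Ay. Capitals mark any match, on either strand, to 6 words, which were the TATA box (TATAAA), the word of the factor Dref (TATCGATA), an E box (CACGTG), the Hairy-class word CACGCG, the core bound by GAGA factor (GAGAG) and the word of the early factor Zelda (CAGGTAG).
Cpr67Fb: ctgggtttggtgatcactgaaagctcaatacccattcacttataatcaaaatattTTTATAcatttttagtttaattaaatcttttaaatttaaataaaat
Cpr73D: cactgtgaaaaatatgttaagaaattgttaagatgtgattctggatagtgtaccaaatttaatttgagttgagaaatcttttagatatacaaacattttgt
Cpr65Ay: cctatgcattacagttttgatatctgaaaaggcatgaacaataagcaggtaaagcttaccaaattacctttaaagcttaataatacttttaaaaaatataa

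Only the Cpr67Fb window held a match, TATAAA on the minus strand. None of the 3 held CACGTG or the related CACGCG, both known as binding words of Hairy-class proteins, and those words were also rare around all 6253 thresholded summits, in 0.8% and 1.18% of windows. The share was 21.0% for TATAAA, 9.18% for GAGAG, 2.46% for TATCGATA and 0.336% for CAGGTAG. The 3 windows were poor in G and C, at 21.8%, 25.7% and 26.7%, where the median of all windows was 33.7%.

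Distance gave the same picture without a limit at 1 kb. The median Cpr gene lay 14099 bp from the nearest thresholded summit (quartiles 4700 and 19771 bp), and the median of all genes was 4525 bp (331 and 13737 bp). Within 2 kb were 5 members (7.14%, all genes 36.9%), within 5 kb 18 (25.7%, all genes 52.1%), within 10 kb 27 (38.6%, all genes 67.9%) and within 20 kb 53 (75.7%, all genes 82.3%). The difference from all genes was thus wide at short range and narrow at 20 kb.

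**Figure D1:**
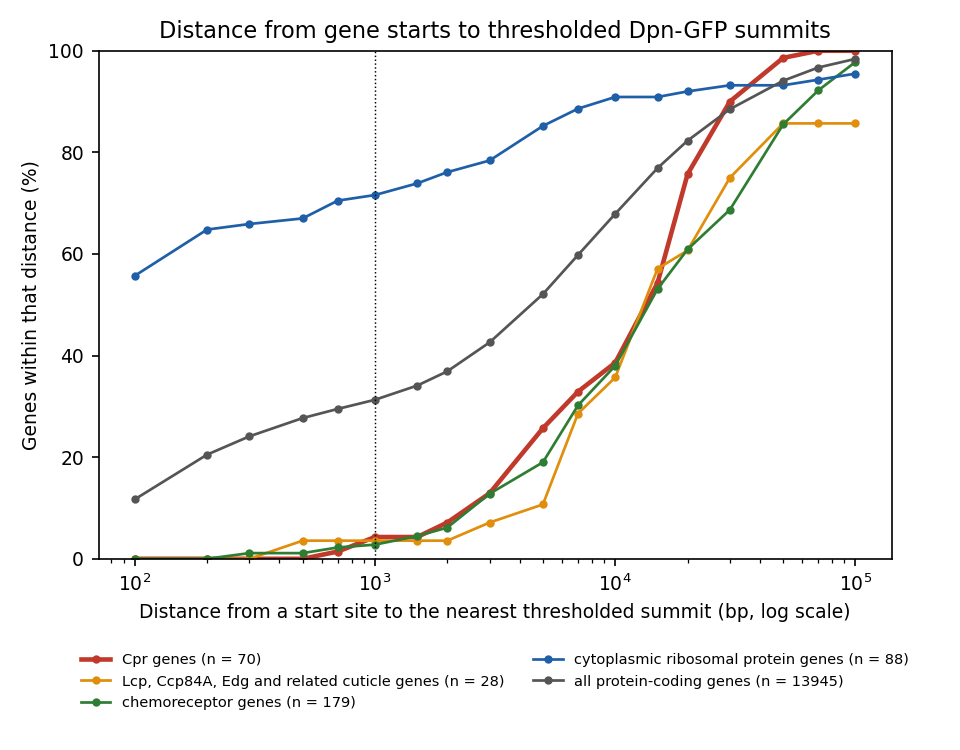
Share of genes (vertical axis, percent) with a thresholded Dpn-GFP summit within a given distance of a start site (horizontal axis, bp, log scale), with a dotted line at 1 kb. The Cpr curve (n = 70) stays at 4.29% at 1 kb, where all 13945 genes are at 31.3%, and comes close to it by 20 kb.

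Between 1 and 2 kb lay Cpr76Ba, 1616 bp from a summit at 19516716 on 3L (signal 288, rank 2018), and Cpr67Fa2, 1809 bp from the summit of Cpr67Fb. Cpr65Eb followed, 2190 bp from a summit at 7090977 on 3L (signal 235, rank 2711). Just inside the 1 kb limit was Cpr65Ay at 907 bp, and just outside it Cpr76Ba. The 5 most remote members were Cpr50Ca at 52426 bp, Cpr49Ac at 48880 bp, Cpr49Ad at 44207 bp, Cpr49Ab at 40654 bp and Cpr49Aa at 38840 bp, all on 2R.

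Within 5 kb of members lay 12 thresholded summits, and for 4 of them the nearest protein-coding start was that of a Cpr gene. The others were nearest to TpnC47D, a troponin C gene of muscle, Pen, an importin gene, Ogdh, CG13297, CG15545, CG7083 or CG11309. The strongest summit in this neighbourhood, at CG11309, had a signal of 1240 and rank 103 and lay 3995 bp from Cpr78Cc. By the rule that gives each summit to the nearest start at any distance, 5 members had one (7.14%), against 29.1% of all genes. They were Cpr67Fb, Cpr73D, Cpr76Ba, Cpr65Eb and Cpr92A, the last with a summit 14037 bp away in an intron of Dys, the dystrophin gene.

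A gene can also score through a neighbour that shares its surroundings, and Cpr genes seldom have one so close. No other protein-coding start lay within 1 kb of a start for 64 of the 70 members (91.4%), against 57.1% of all genes. Among genes with such a lone start, 2 of 64 Cpr genes had a thresholded summit within 1 kb (3.12%, exact 95% interval 0.381 to 10.8%), beside 18.5% of 7960 genes in all. The 2 were Cpr67Fb and Cpr65Ay. The summit of Cpr65Ay lay nearer to the start of CG13297 (346 bp) than to its own (907 bp). A lone start thus does not exclude a score through a neighbour, and this holds for all genes too. The Cpr share was below the share of all genes in this comparison as well.

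In the relaxed lists, where background is present, the Cpr shares were again below those of all genes. The pooled list had one within 1 kb for 21 members (30.0%) against 60.5% of all genes. Replicate 1 had 21 (30.0%) against 62.2%, replicate 2 had 19 (27.1%) against 51.4%, and replicate 3 had 21 (30.0%) against 61.8%. All 3 replicates gave close to the same share of members.

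Replicates did not pick the same members each time. A summit within 1 kb was present in all 3 replicates for 10 members (14.3%, all genes 43.9%), in 2 for 6 (8.57%, all genes 15.4%), in 1 for 19 (27.1%, all genes 12.9%) and in 0 for 35 (all genes 27.8%). Of the 70 members, 3 had a thresholded summit, another 18 had a pooled summit below the threshold, another 16 had a summit in a replicate list alone (15 of them in 1 replicate), and 33 had none in any list. This split was not counted over all genes. Of all genes, 31.3% had a thresholded and 60.5% a pooled summit within 1 kb, and 27.8% had none in any replicate. The 33 included Cpr76Ba, Cpr76Bb, Cpr76Bc and Cpr76Bd, the pair Cpr65Ax1 and Cpr65Ax2, and 6 of the 8 Cpr49A genes.

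Where a summit was present it was mostly low in its list. Among members with one, the median rank of the best pooled summit was 15937, and among all genes 5953. The medians were 16522 against 6237 in replicate 1, 14427 against 5079 in replicate 2 and 16019 against 6042 in replicate 3. Each replicate had 3 members (4.29%) with a summit within 1 kb among its first 6253 peaks, where all genes were at 31.2% in replicate 1, 29.1% in replicate 2 and 31.7% in replicate 3. These were Cpr67Fb, Cpr73D and Cpr65Av in replicate 1, Cpr67Fb, Cpr73D and Cpr65Ea in replicate 2, and Cpr67Fb, Cpr73D and Cpr65Ay in replicate 3, so that 2 of the 3 recurred.

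**Figure D2:**
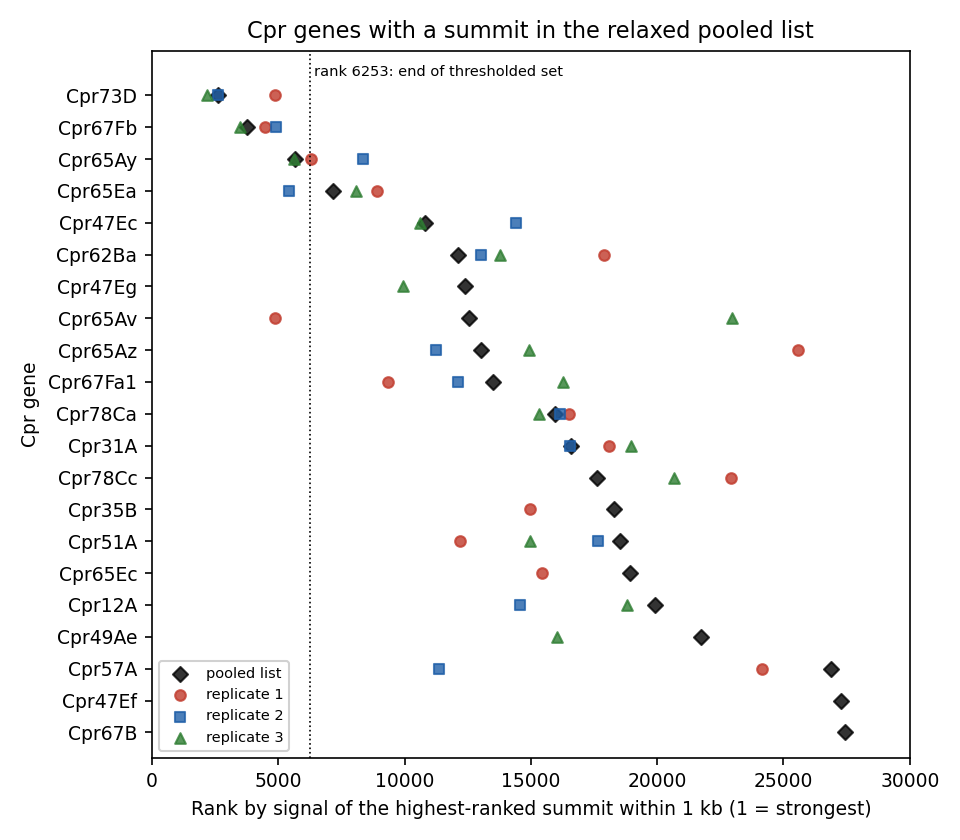
Rank by signal (horizontal axis, 1 is strongest) of the best summit within 1 kb of a start for the 21 Cpr genes (vertical axis) with one in the pooled list, with 1 symbol for the pooled list and for each replicate list that had one. Only Cpr73D and Cpr67Fb have all their symbols left of the dotted line at rank 6253, and most pooled ranks lie beyond 10817.

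Below the threshold, Cpr65Ea came closest, with a pooled summit 209 bp upstream of its start, at rank 7166, a signal of 109 and a −log10 q-value of 3.46. The best summit of Cpr65Ea ranked 8917 in replicate 1 (396 bp upstream), 5432 in replicate 2 (162 bp) and 8070 in replicate 3 (211 bp). Each replicate thus had a summit within 1 kb, once among the first 6253. The next by pooled rank were Cpr47Ec at 10817, Cpr62Ba at 12130, Cpr47Eg at 12397, Cpr65Av at 12561, Cpr65Az at 13027, Cpr67Fa1 at 13516, Cpr78Ca at 15937, Cpr31A at 16583 and Cpr78Cc at 17623. How close their replicate ranks were varied from gene to gene. Cpr78Ca ranked 16522, 16135 and 15308 in replicates 1, 2 and 3, and Cpr31A 18088, 16564 and 18963. Cpr62Ba ranked 17902, 13010 and 13775, Cpr67Fa1 9339, 12103 and 16290, and Cpr65Az 25587, 11227 and 14934. These 5 had a summit in every replicate, with the ranks closest together at Cpr78Ca and widest apart at Cpr65Az. Ranks are of the best summit within 1 kb, which need not be the same site in each list. At Cpr78Ca it lay 706, 675 and 353 bp upstream of the start in replicates 1, 2 and 3, so close ranks there do not show 1 shared site. Cpr47Ec had no summit in replicate 1 and ranked 14427 and 10606 in replicates 2 and 3. Cpr65Av ranked 4866 in replicate 1, at a summit 421 bp upstream of its start, and 22982 in replicate 3, at another site 782 bp downstream. Cpr78Cc ranked 22918 and 20680 in the same replicates, and neither gene had a summit in replicate 2. Cpr47Eg was found in replicate 3 alone, at rank 9959.

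The Cpr genes lay in runs. With gaps of at most 50 kb, 49 members fell in 12 runs of 2 or more and 21 stood alone. The runs covered 213 kb and held 4 thresholded summits, or 1.88 per 100 kb, where the 6 chromosome arms held 4.67 per 100 kb. For pooled summits the density was 15.5 against 22.4 per 100 kb. Of the 12 runs, each counted between the outer ends of its member genes, 8 held no thresholded summit. The runs spanned 4704 to 38545 bp, and short spans can be empty anywhere. How often other stretches of such lengths held none was not counted, so the 8 are not a trait of Cpr runs by themselves.

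The largest run, Cpr49Aa to Cpr49Ah on 2R, had 8 members on 38545 bp with 0 thresholded summits and 1 pooled summit. Cpr64Aa to Cpr64Ad and Cpr76Ba to Cpr76Bd, with 4 members each, had neither kind. The thresholded summit at 19516716, 1616 bp from the start of Cpr76Ba, lay just outside the second of these runs. Cpr65Au to Cpr65Az, in which 7 members are mixed with 11 other genes, had 13 pooled summits and 1 above the threshold, that of Cpr65Ay. The runs thus ranged from empty to well filled with weak summits. Among 250 other protein-coding genes with a start within 20 kb of a Cpr start, 56 had a thresholded summit within 1 kb (22.4%, all genes 31.3%). They were 0 of the 12 other cuticle genes and 56 of the remaining 238 (23.5%). The neighbours that are not cuticle genes were thus also below the share of all genes, though less so than the Cpr genes.

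**Figure D3:**
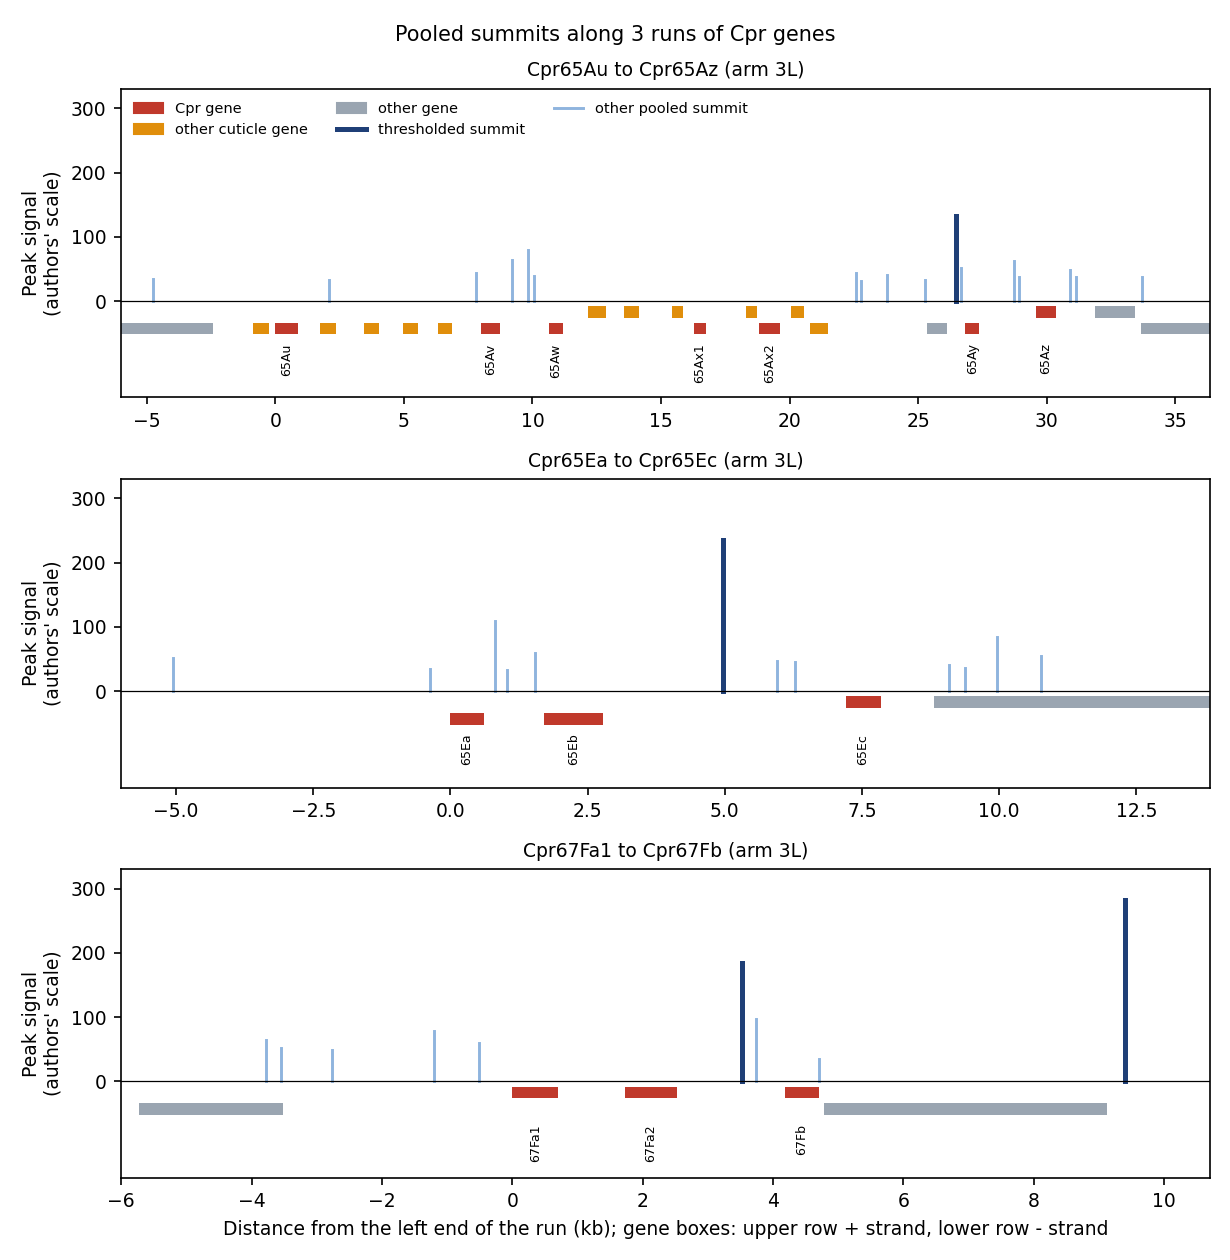
Pooled summits (thin lines) and thresholded summits (thick lines) along 3 runs of Cpr genes, with height giving the peak signal on the authors' scale and the horizontal axis the distance in kb from the left end of the run. Gene boxes below the axis show that the 1 thresholded summit within each run lies between genes, with signals of 133, 235 and 185, and the thick line to the right of the lowest map lies outside its run.

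A pair of near-identical copies limits what peaks can tell. The coding sequences of Cpr65Ax1 and Cpr65Ax2, both of 306 bp, had 0 differences, and those of Cpr67Fa1 and Cpr67Fa2, of 402 bp, had 14 (96.5% identity). Reads from such copies may align to either, and how the authors treated them is not given in the sources used here, so the empty result at Cpr65Ax1 and Cpr65Ax2 is uncertain.

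Among other lists of cuticle genes the thresholded counts were low, while their shares in the relaxed pooled list differed. Of 28 genes with the symbols Lcp, Ccp84A, Acp65A, Edg, Pcp and resilin, 1 had a thresholded summit within 1 kb (3.57%), Lcp9, with a signal of 165 and the start of CG3594 nearer. No thresholded summit was found for 25 Tweedle genes, which encode another family of cuticle proteins (0 of 25, exact 95% interval up to 13.7%). It was also 0 of 9 for peritrophin-type genes (up to 33.6%) and 0 of 8 for genes of cuticle tanning (up to 36.9%). The last 2 intervals include the 31.3% of all genes, so those small lists cannot show whether their share was lower. Intervals treat genes as independent draws, and no difference between lists was tested. In the pooled list, 6 of 28 Lcp, Ccp84A, Edg and related genes had a summit within 1 kb (21.4%) and 2 of 25 Tweedle genes (8.0%), whereas 5 of 9 peritrophin-type genes (55.6%) and 5 of 8 tanning genes (62.5%) were close to the 60.5% of all genes.

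The lists for chitin and for regulators of the epidermis had higher shares. A list of 24 genes for chitin synthesis and assembly, which also held chitinase and chitinase-like genes, had 7 with a thresholded summit (29.2%). The strongest was at Cht7 (signal 459), a chitinase gene, then at the genes of the chitinase-like proteins Idgf2 (256) and Idgf6 (219), which do not make chitin, and at Gfat2 (208), an enzyme of the pathway to the chitin precursor. Of 21 ecdysone-response and epidermal regulators 8 had one (38.1%), led by gce (794), a juvenile hormone receptor, Eip75B (628), usp (308), the partner of the ecdysone receptor, and Hr78 (306). Both shares were close to the 31.3% of all genes, with exact 95% intervals of 12.6 to 51.1% and 18.1 to 61.6%. By nearest start the regulators were higher, at 71.4%, and chitin genes at 33.3% (all genes 29.1%). In the pooled list they were at 85.7% and 66.7% (all genes 60.5%). The regulators were long, with a median of 22657 bp (all genes 2166 bp), and shares were not adjusted for length.

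For reference, 179 chemoreceptor genes, which like Cpr genes are expressed in few cells or at set times, had 5 (2.79%). They were led by Or88a (signal 469), Or9a (371), Ir60e (265) and Gr32a (257), and for each of these 4 summits another gene had the nearer start. Genes for cytoplasmic ribosomal proteins had 63 of 88 (71.6%), led by RpS27 (790), RpL34b (789), RpL7 (777) and RpS20 (750). The Cpr share of 4.29% was near that of the chemoreceptor genes in the thresholded list, and above it in the relaxed lists. Chemoreceptor genes had a summit within 1 kb in 13.4% of cases in the pooled list and in 15.6%, 11.2% and 12.8% in replicates 1, 2 and 3, where Cpr genes had 30.0%, 30.0%, 27.1% and 30.0%.

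**Figure D4:**
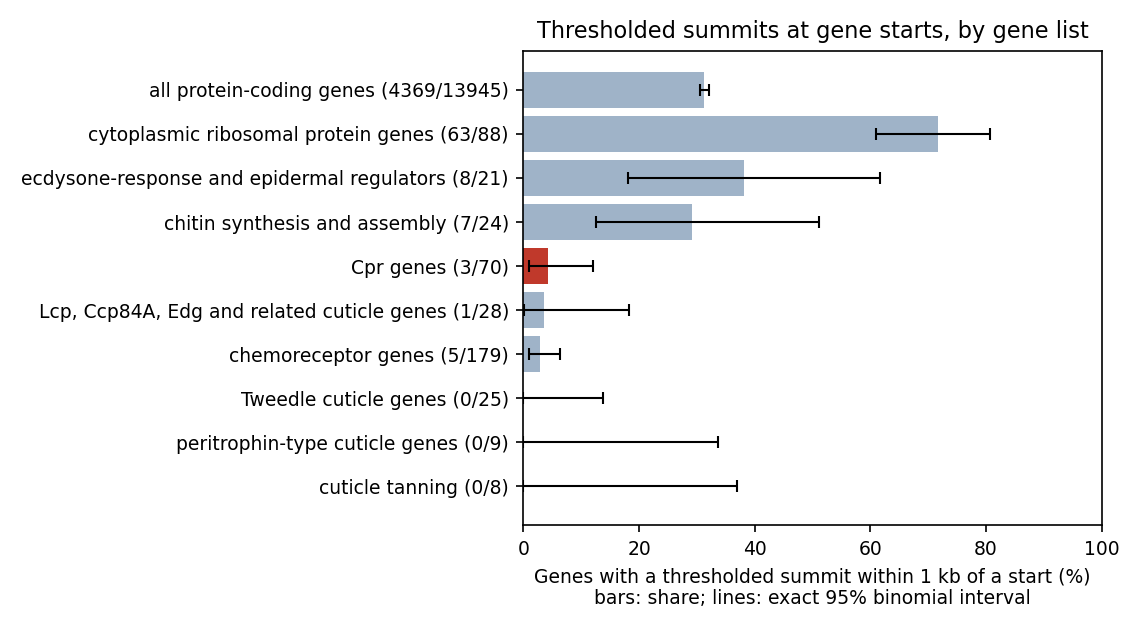
Share of genes with a thresholded summit within 1 kb of a start (horizontal axis, percent) for each gene list, with lines for the exact 95% binomial interval. Cpr genes are at 4.29%, chemoreceptor genes at 2.79%, all protein-coding genes at 31.3% and ribosomal protein genes at 71.6%, and the lines of the peritrophin-type and tanning lists reach past 31.3%.

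A TATA box was common at the starts of Cpr genes. TATAAA, the TATA box, stood on the gene's own strand 45 to 15 bases before the start in 39 of 70 Cpr genes (55.7%), in 22 of 28 of the Lcp, Ccp84A, Edg and related genes (78.6%), in 8.38% of chemoreceptor genes and in 9.14% of all genes. This position was chosen after a wider window had been looked at. Across all genes, those with the word had a thresholded summit within 1 kb in 11.6% of cases and those without it in 33.3%. The 60 bases from 50 before to 9 after the start are shown, 5′ to 3′ on the gene's strand, for the 3 members with a thresholded summit, for Cpr65Ea, and for the 2 pairs of copies. Capitals mark TATAAA, and positions are on 3L of dm6.
Cpr67Fb: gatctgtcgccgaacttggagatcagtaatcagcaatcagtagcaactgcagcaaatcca
Cpr73D: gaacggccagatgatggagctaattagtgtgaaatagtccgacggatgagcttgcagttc
Cpr65Ay: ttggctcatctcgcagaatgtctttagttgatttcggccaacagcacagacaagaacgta
Cpr65Ea: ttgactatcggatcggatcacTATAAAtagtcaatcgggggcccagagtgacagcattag
Cpr67Fa1: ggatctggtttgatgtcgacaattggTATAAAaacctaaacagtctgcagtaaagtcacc
Cpr67Fa2: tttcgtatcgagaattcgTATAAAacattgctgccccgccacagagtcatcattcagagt
Cpr65Ax1: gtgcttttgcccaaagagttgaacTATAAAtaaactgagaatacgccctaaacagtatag
Cpr65Ax2: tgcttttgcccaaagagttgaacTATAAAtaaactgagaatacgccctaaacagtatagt

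The 3 members with a thresholded summit held no TATAAA here, and the other 5 did. Over the family, 0 of 39 members with the word and 3 of 31 without it had a thresholded summit within 1 kb, and a pooled summit was present for 11 of 39 and 10 of 31. Across all genes the thresholded shares were 11.6% with the word and 33.3% without it, and pooled summits were not split by the word. With 3 sites in all, the split among members is a description. In the 300 bases from 250 before to 50 after the start, on either strand, TATAAA was in 49 Cpr genes (70.0%, all genes 45.8%), GAGAG in 23 (32.9%, all genes 29.7%), CACGCG in 7 (all genes 6.12%), CACGTG in 1 (1.43%, all genes 4.2%), TATCGATA in 1 (1.43%, all genes 9.36%) and CAGGTAG in 0 (all genes 1.64%). The median share of G and C there was 45.5% in Cpr genes and 38.0% in all genes.

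**Figure D5:**
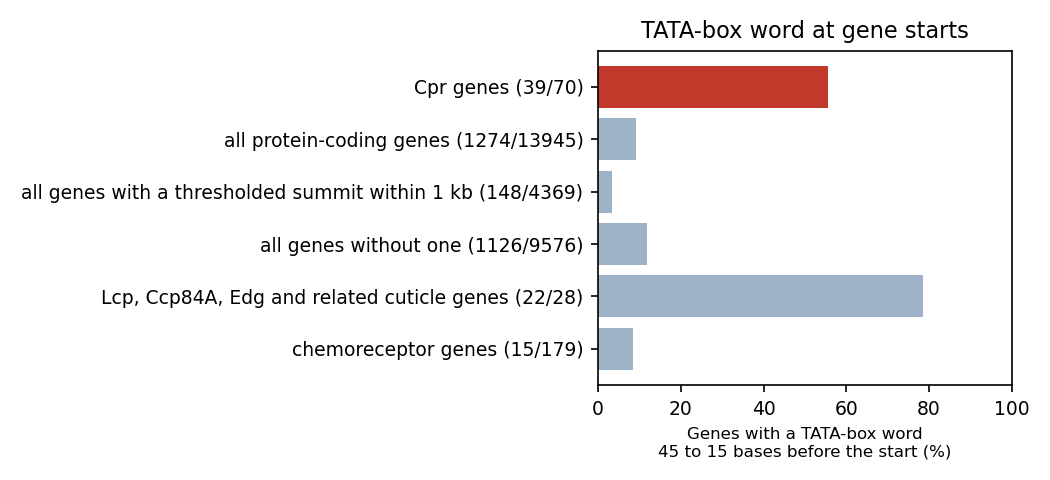
Share of genes with TATAAA on their own strand 45 to 15 bases before the start (horizontal axis, percent), by group. Cpr genes reach 55.7%, all genes 9.14%, and genes with a thresholded summit within 1 kb 3.39%.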

How the data were processed

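Dpn-GFP ChIP-seq of 3 biological replicates, numbered as in the labels, was read from 5 deposited peak lists on dm6, and lists on dm3 were not used. Per the deposited text listings, the relaxed calls were made to feed a reproducibility procedure (IDR, irreproducible discovery rate), a control file entered each call, and the thresholded list derives from the 3 replicate lists and the pooled list. The aligner, peak caller, IDR limit and read depth are not given in the sources used here. The signal of a peak and its −log10 q-value are the authors' values as deposited, and the summit is the deposited offset from the peak start.

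Summits were compared with all annotated start sites of protein-coding genes on 6 arms (Ensembl release 115, annotation 6.54), within 1 kb as the main limit and by distance otherwise. Genes tied as nearest to a summit all counted. Ranks are by signal within a list. DNA words were searched on both strands in 101 bases around summits and in promoters read from the Release 6 RefSeq genome, whose sequence was used because no promoter or protein table was used here. The Rebers and Riddiford pattern was therefore not searched. Intervals are exact Clopper-Pearson at 95%. Of the listed symbols, obst-C, obst-D and Dat were not matched.

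No test was run, since there was 1 group: member counts stand beside those of all genes. Members and gene lists were chosen with earlier results of these data known. Named genes are all members with a thresholded summit within 1 kb or 1 to 2 kb away, the 10 highest-ranked members below the threshold, the 5 most remote, genes nearest to counted summits, and up to 4 leading genes of each other list. Members outside these, such as Cpr65Eb and Cpr92A, were named after their values were seen. The counting was tested on simulated data. Python 3.11.15, numpy 2.4.6, pandas 2.3.3 and scipy 1.17.1 were used.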

Additional observations from a re-analysis of the deposited data

How the results depend on the processing

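The 3 members with a thresholded summit within 1 kb became 0 within 500 bp (all genes 27.7%), 5 within 2 kb (all genes 36.9%) and 5 by nearest start (all genes 29.1%). Counted from 5 kb before to 5 kb after the gene they were 19, where 58.2% of all genes had a summit. They were 1 with the strongest 3126 peaks (all genes 18.8%) and 7 with the first 12506 pooled peaks (all genes 45.5%). Without any 1 replicate they were 2 (2 to 2, all genes 23.5% to 25.9%). There, only thresholded peaks that overlapped a peak among the first 6253 of both remaining replicates were kept. In each of these settings the Cpr share stayed below that of all genes. The median distance of 14099 bp became 18532 bp with the strongest 3126 peaks, 5930 bp with the first 12506, and 15278 to 15672 bp without 1 replicate. In the relaxed lists, the counts within 500 bp were 11 (pooled, all genes 54.2%), 7 (replicate 2, 43.3%) and 9 (replicate 3, 55.4%), those within 2 kb 39 (replicate 2, 63.2%) and 33 (replicate 3, 69.7%), and those in the first 6253 peaks 3 in every list (29.1% to 31.7%). The 1 of 3 summits nearest to a member became 0 within 500 bp, 3 within 2 kb, 2 with 1 start per gene, 0 with the strongest 3126 peaks and 7 with the first 12506, and 1 without any 1 replicate (1 to 1). In 100 bases around the start, CACGCG was in 3 members (all genes 3.15%), CACGTG in 0 (1.94%) and GAGAG in 7 (11.4%). The TATAAA position 45 to 15 bases before the start was chosen after seeing the data. Read depth is unknown, so a missing summit does not show that Dpn is absent. No paired analysis was possible because there was 1 group.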
